A study of Mus musculus with 19 samples.

Results

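The genes of oxidative phosphorylation examined here were those whose symbol starts with Ndufa, Ndufb, Ndufc, Ndufs, Ndufv, Uqcr, Cox4, Cox5, Cox6, Cox7, Cox8 or Atp5, together with Sdha, Sdhb, Sdhc, Sdhd and Cyc1. The rule used gene names and detection alone, and no test between groups entered it. Detection can itself differ between groups, as it did for Cox8b (below). Of the 82 such genes in the platform annotation, 78 were detected (detection p under 0.05) on at least 5 of 19 arrays and are called the members below, out of 10831 genes and unnamed probes tested in all. The 4 genes that did not pass were Ndufb11, Cox6a2, Uqcrfs1 and Sdha, whose probes were detected on 4, 3, 2 and 1 arrays. The members detected on the fewest arrays were Ndufaf3 (11 arrays) and Cox8b (12 arrays), so that no member lay close to the limit. Of the members, 70 code for subunits, 32 of complex I, 3 of complex II, 7 of complex III, 12 of complex IV and 16 of complex V. The other 8 are 7 assembly factors of complex I (Ndufaf genes) and the pseudogene symbol Ndufs5-ps, and they are given apart from the subunits. Members lie on 19 chromosomes, with 2 on the X chromosome and 0 on chromosome 14, which holds Mat1a.

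Liver RNA was measured on single-colour Illumina BeadChips, on which beads carry a probe for each transcript, and all mice were 10 months old. There were 5 livers of Mat1a knockout (KO) mice given S-adenosylmethionine (SAMe) for 8 weeks, 6 livers of KO mice given placebo for 8 weeks and 8 livers of wild-type (WT) mice given placebo for 8 weeks, with 1 array per animal ID. Mat1a codes for the enzyme with which hepatocytes make SAMe, which gives its methyl group to DNA, proteins and lipids. No array of a SAMe-treated WT liver was among them, and the sources used here state neither the sex of the mice nor the SAMe dose nor how the gene was deleted.

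Oxidative phosphorylation takes place in the inner membrane of mitochondria. Complexes I and II pass electrons from NADH and succinate to coenzyme Q, complex III passes them on to cytochrome c, and complex IV reduces oxygen, while complexes I, III and IV pump protons. Complex V, the ATP synthase, uses the returning protons to make ATP, and all complexes except complex II also hold subunits coded by mitochondrial DNA, which the rule did not include. Hepatocytes are rich in mitochondria, and many of the nuclear genes carry promoter sites for NRF1 and for ETS factors such as GABP.

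Windows of 300 bases (250 before to 50 after the start of the gene) from RefSeq, build GRCm38.p6, were matched by symbol to 67 of the 78 members. They were searched on both strands for the core of the NRF1 site (GCGC, 1 base of any kind, TGCGC), for CCGGAAG, an ETS site, and for TNAAGGTCA, a site of the estrogen-related receptors that was added after the expression values had been seen. The windows below belong to a complex I gene with NRF1 matches (Ndufb4), to another complex I gene and a complex V gene with an ETS match (Ndufb7, Atp5e), and to the complex IV genes with the largest fall and the largest rise in KO placebo livers (Cox7a1, Cox8b, with no match). Capitals mark the matches, and CTTCCGG is the ETS motif read on the other strand. In the Ndufb4 window the capitals starting with TGAAGG are the estrogen-related receptor motif and the others are NRF1 matches.
Ndufb4 promoter, chr16:37654319-37654618, minus strand: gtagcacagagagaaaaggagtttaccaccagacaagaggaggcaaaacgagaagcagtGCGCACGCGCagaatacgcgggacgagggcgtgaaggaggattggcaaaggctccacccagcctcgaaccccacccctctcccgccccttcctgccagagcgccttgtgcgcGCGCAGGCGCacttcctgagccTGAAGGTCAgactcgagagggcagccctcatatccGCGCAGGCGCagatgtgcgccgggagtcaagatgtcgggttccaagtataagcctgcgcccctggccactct
Ndufb7 promoter, chr8:83566508-83566807, plus strand: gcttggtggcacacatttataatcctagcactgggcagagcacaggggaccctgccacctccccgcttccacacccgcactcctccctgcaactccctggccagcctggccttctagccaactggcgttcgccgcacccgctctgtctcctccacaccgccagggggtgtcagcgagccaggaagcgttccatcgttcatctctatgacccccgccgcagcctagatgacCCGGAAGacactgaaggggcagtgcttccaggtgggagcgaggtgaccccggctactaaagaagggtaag
Atp5e promoter, chr2:174464052-174464351, minus strand: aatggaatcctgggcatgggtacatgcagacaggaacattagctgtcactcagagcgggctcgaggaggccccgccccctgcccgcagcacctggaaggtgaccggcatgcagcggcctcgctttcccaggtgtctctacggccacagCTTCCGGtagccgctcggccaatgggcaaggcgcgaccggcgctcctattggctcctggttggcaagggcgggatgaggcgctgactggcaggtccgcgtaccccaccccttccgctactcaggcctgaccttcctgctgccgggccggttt
Cox7a1 promoter, chr7:30183921-30184220, plus strand: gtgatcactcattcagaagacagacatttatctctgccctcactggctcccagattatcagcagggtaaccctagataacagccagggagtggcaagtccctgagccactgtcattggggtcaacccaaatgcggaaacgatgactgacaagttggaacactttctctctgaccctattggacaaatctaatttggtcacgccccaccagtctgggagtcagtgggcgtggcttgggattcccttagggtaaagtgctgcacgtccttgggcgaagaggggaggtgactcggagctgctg
Cox8b promoter, chr7:140900397-140900696, minus strand: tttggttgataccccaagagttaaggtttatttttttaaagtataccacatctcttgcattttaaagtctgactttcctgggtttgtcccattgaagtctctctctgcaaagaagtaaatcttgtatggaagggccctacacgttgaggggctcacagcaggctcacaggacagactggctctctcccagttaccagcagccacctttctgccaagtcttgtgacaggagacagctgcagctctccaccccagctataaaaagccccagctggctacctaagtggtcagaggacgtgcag
The NRF1 motif was present in 17 of the 67 member windows (25.4%), against 11.6% of the 6951 named genes tested that have a window and 5.19% of all 27025 genes with one. The ETS motif was present in 18 member windows (26.9%), against 20.4% of the named genes tested and 9.93% of all genes. The receptor motif was present in 3 member windows (4.48%), against 1.01% and 1.43%. By complex, NRF1 matches were in 6 of 30 windows of complex I, 1 of 2 of complex II, 1 of 4 of complex III, 1 of 10 of complex IV and 6 of 14 of complex V. The windows of Cox7a1 and Cox8b held none of these motifs. A match is a string of letters in a window and shows no binding.

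Mat1a itself had a mean log2 intensity of 9.64 ± 0.12 in KO SAMe livers (SD, n = 5), 9.52 ± 0.31 in KO placebo livers (SD, n = 6) and 12.12 ± 0.14 in WT placebo livers (SD, n = 8). Between 25.5% and 31.8% of probes were detected per array. The arrays fell into a high-background set of 5, with a median raw intensity between 93.6 and 100, and a low-background set of 14, between 75.1 and 85.8; the labels say nothing of such sets. The high-background arrays were 4 of the 6 KO placebo arrays, whose animal IDs end in the letter J, and 1 WT placebo array. No KO SAMe array was among them, so counts are given further below from a fit that holds the background set as a block and from the low-background arrays alone. Of the 8 hepatocyte markers examined, 7 were detected on all 19 arrays (Apoa1, Apob, Ttr, Cps1, Hnf4a, Cyp2e1 and Alb). Their summed intensity ran between 25700 and 26900 in KO SAMe livers, 24700 and 30100 in KO placebo livers and 22700 and 28700 in WT placebo livers. Of the 7, 3 were called in KO placebo against WT placebo livers (limma, adjusted p under 0.05), where 40.2% of all genes tested were. Hnf4a (0.98, adjusted p = 2.8e-06) and Cyp2e1 (0.42, adjusted p = 0.00083) were higher and Alb was lower (-0.60, adjusted p = 0.015). In KO SAMe against KO placebo livers, where 18.5% of all genes were called, Alb was higher (0.80, adjusted p = 0.012) and Hnf4a lower (-0.61, adjusted p = 0.005). In KO SAMe against WT placebo livers 0 of the 7 were called, against 17.6% of all genes. In RNA from whole liver, fewer cells of a type and less RNA per cell cannot be told apart.

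Most of the oxidative phosphorylation genes were lower in KO placebo than in WT placebo livers, all but Cox7a1 and Cox7b of them by less than 1 log2 unit. Of the 78 members, 42 were lower and 8 were higher (limma, Benjamini-Hochberg adjusted p under 0.05 over all genes tested), and 28 were not called. Over all genes tested 40.2% were called, 20.4% lower and 19.8% higher. Among the 3453 genes at least as bright as the members' lower quartile, a comparison chosen after seeing the data, 32.8% were lower and 26.9% higher. The members' share called lower was 53.8% and their share called higher 10.3%. The median log2 change of the members was -0.29, against 0.008 over all genes tested, and 62 of the 78 changes were negative. Without overlap between the groups of arrays, 14 of the 78 members were lower and 3 higher, where 8.52% and 8.1% of all genes were. Of the 3453 bright genes, 553 were lower and 466 higher without overlap. Among those called lower alone, 14 of 42 members and 923 of 2211 genes did not overlap. Among those called higher, 3 of 8 members and 877 of 2148 genes did not. Scaling each array to the median of all probes in place of quantile normalization gave 33 members lower and 9 higher (9.14% and 37% of all genes), and scaling to the median of probes past the filter gave 59 and 4 (42.5% and 16.5% of all genes). Those scalings moved the median of all genes to 0.18 and -0.20, and in both the members' median lay 0.38 below it. The count of higher members was 5 without KO placebo replicate 3 and also 5 without KO placebo replicate 4.

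**Figure D1:**
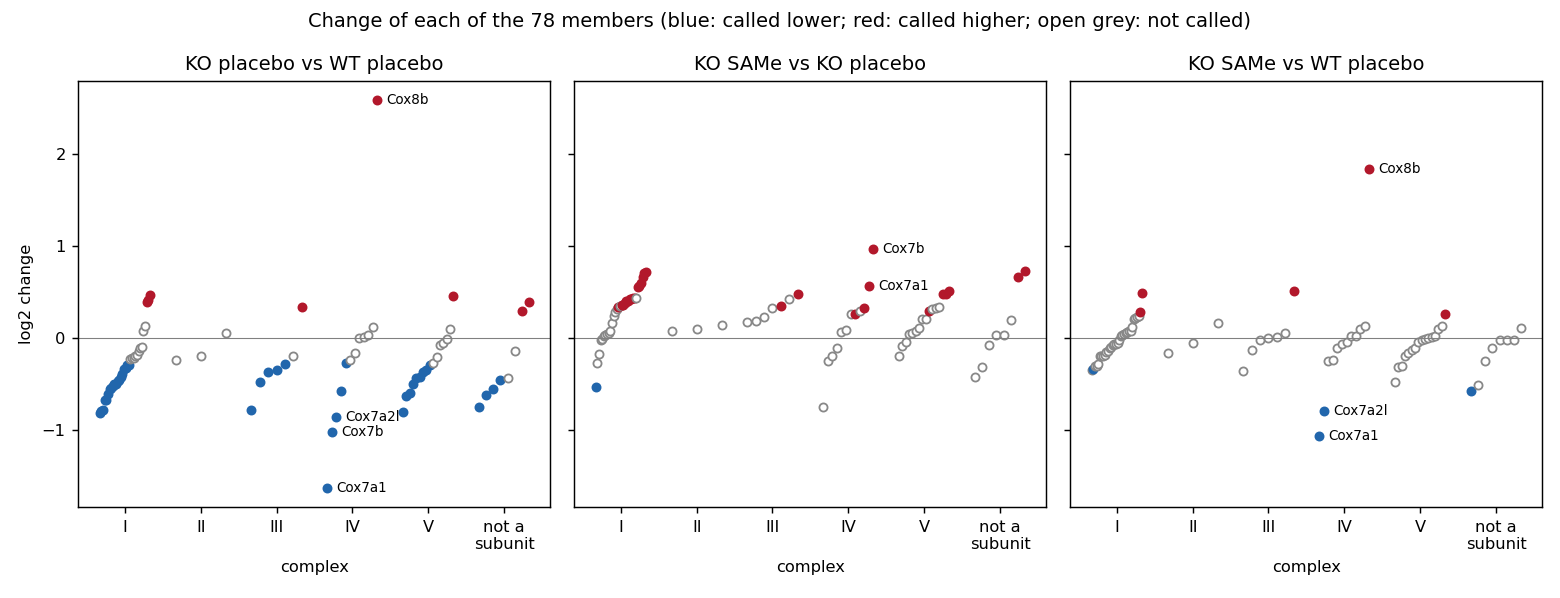
Log2 change (vertical axis) of each of the 78 members, by complex (horizontal axis), in the 3 comparisons. Filled points passed the test (adjusted p under 0.05), blue lower and red higher, and open grey points did not. In KO placebo against WT placebo livers 42 points are blue and 8 red; in KO SAMe against KO placebo livers 1 is blue and 28 are red; in KO SAMe against WT placebo livers 4 are blue and 5 red.

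The subunits of complex I, which takes electrons from NADH, made up the largest group. Of its 32 members 19 were lower in KO placebo than in WT placebo livers, with log2 changes between -0.82 and -0.28 and a median of -0.33, and 3 were higher. In the membrane arm, which pumps protons, 11 of 17 were lower and 1 was higher, and in the matrix arm, which holds the NADH site and the iron-sulfur clusters, 8 of 14 were lower and 2 were higher. The 3 that were higher were Ndufs3 and Ndufs7, core subunits of the part that binds coenzyme Q, and Ndufa10, an accessory subunit of the membrane arm.

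Ndufb7, an accessory subunit of the membrane arm, had log2 intensities of 5.96, 6.19, 6.34, 6.38 and 6.40 in the KO SAMe livers. In KO placebo livers the lowest, median and highest were 5.27, 5.63 and 5.84, against 6.15, 6.40 and 6.58 in WT placebo livers. All KO placebo arrays lay below all arrays of the other groups, and the KO SAMe arrays overlapped with WT. Its log2 change was -0.82 in KO placebo against WT placebo livers (SE 0.11, limma adjusted p = 3.2e-06) and 0.66 in KO SAMe against KO placebo livers (SE 0.12, adjusted p = 0.00088).

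Ndufb4, another accessory subunit of that arm, read 5.32, 5.15, 4.97, 5.58 and 5.31 in KO SAMe livers. The KO placebo values ran from 4.32 through a median of 4.51 to 4.81, against WT placebo values from 4.89 through 5.35 to 5.68. Again no KO placebo array reached the other groups. The probe was detected on 5 of 5 KO SAMe, 3 of 6 KO placebo and 8 of 8 WT placebo arrays, so its level in KO placebo livers was read close to the background. It fell by 0.79 on the log2 scale in KO placebo against WT placebo livers (SE 0.13, limma adjusted p = 4.1e-05). Against KO placebo livers the KO SAMe livers were higher by 0.73 (SE 0.14, adjusted p = 0.0017).

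Ndufs3 ran the other way, with values of 8.06, 7.73, 8.05, 8.31 and 7.84 in KO SAMe livers. Its KO placebo values were 8.22 at the lowest, 8.54 at the median and 8.73 at the highest, and its WT placebo values 7.84, 8.11 and 8.18. Every KO placebo array lay above every WT placebo array, and 1 KO SAMe array overlapped with KO placebo. It was higher by 0.47 in KO placebo than in WT placebo livers (SE 0.10, adjusted p = 0.0006) and was the 1 member called lower in KO SAMe than in KO placebo livers (-0.53, SE 0.11, adjusted p = 0.0028).

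Probes of the same gene mostly went the same way, with 24 of the 27 other probes of members sharing the sign of the probe used in KO placebo against WT placebo livers. Ndufs4, an accessory subunit of the matrix arm whose human counterpart is mutated in Leigh syndrome, was lower by its brightest probe (-0.78, adjusted p = 0.00012), with arrays between 8.72 and 9.67 in KO placebo livers and between 9.73 and 10.29 in WT placebo livers. Its other 3 probes gave -0.33, -0.26 and -0.13, so the size of that fall depends on the probe. In KO SAMe against KO placebo livers the brightest Ndufs4 probe gave 0.44 and the other 3 gave -0.08, -0.07 and -0.23. No direction is given for Ndufs4 there. For Ndufab1, the mitochondrial acyl carrier protein, the brightest probe gave -0.09 (adjusted p = 0.49) and another -0.79 in KO placebo against WT placebo livers, so no direction is given for it in that comparison.

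Complex II, which also works in the tricarboxylic acid cycle and has no subunit coded by mitochondrial DNA, had 0 of 3 measured members called in any of the 3 comparisons over all arrays. Sdhb, the iron-sulfur subunit, read 8.24, 7.41, 7.5, 7.95 and 7.98 in KO SAMe livers, 7.22 to 8.04 with a median of 7.77 in KO placebo livers and 7.69 to 8.23 with a median of 7.96 in WT placebo livers. Sdhc, a membrane anchor, read 10.18, 10.44, 10.30, 10.39 and 10.23 in KO SAMe livers, 10.02 to 10.52 with a median of 10.17 in KO placebo livers and 9.96 to 10.45 with a median of 10.07 in WT placebo livers. Sdhd, the other anchor, read 5.12, 4.49, 4.41, 4.67 and 5.14 in KO SAMe livers, 4.39 to 4.79 with a median of 4.62 in KO placebo livers and 4.47 to 5.28 with a median of 4.81 in WT placebo livers. All groups overlapped for all 3 genes. In KO placebo against WT placebo livers the log2 changes were -0.24 for Sdhb (adjusted p = 0.21), -0.19 for Sdhd (adjusted p = 0.29) and 0.06 for Sdhc (adjusted p = 0.65). Sdhd was detected on 3 of 5 KO SAMe, 5 of 6 KO placebo and 6 of 8 WT placebo arrays. With arrays scaled to the median of probes past the filter, Sdhc (-0.24, adjusted p = 0.047) and Sdhd (-0.41, adjusted p = 0.016) were called lower. With the catalytic subunit Sdha outside the detection limit, 3 genes stand for the complex, and a p that misses the limit does not show that they were equal.

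In complex III, 5 of 7 members were lower in KO placebo than in WT placebo livers and 1 was higher, with a median of -0.35. The 5 were Uqcrh, the hinge protein, the small subunits Uqcr10 and Uqcr11, the core protein Uqcrc2 and Cyc1, cytochrome c1. Uqcr10 had 12.57, 12.46, 12.49, 12.56 and 12.51 in KO SAMe livers. Its lowest, median and highest values were 11.75, 12.01 and 12.26 in KO placebo livers, against 12.34, 12.50 and 12.66 in WT placebo livers. No KO placebo array reached any array of the other groups, which overlapped with each other. The log2 changes were -0.47 against WT placebo (SE 0.08, adjusted p = 0.0001) and, for KO SAMe against KO placebo livers, 0.49 (SE 0.09, adjusted p = 0.0015).

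Uqcrh was at 10.38, 9.52, 10.11, 10.45 and 10.34 in KO SAMe livers. It spanned 9.26 to 9.98 with a median of 9.86 in KO placebo livers, against 10.16 to 10.85 with a median of 10.54 in WT placebo livers. The KO placebo and WT placebo arrays did not overlap, and 1 KO SAMe array lay among the KO placebo ones. Its log2 change was -0.78 in KO placebo against WT placebo livers (SE 0.15, adjusted p = 0.00025), and 0.43 in KO SAMe against KO placebo livers, which was not called (adjusted p = 0.081). Uqcrc1, the partner core protein of Uqcrc2, was higher in both KO groups, by 0.52 in KO SAMe (adjusted p = 0.007) and 0.34 in KO placebo livers (adjusted p = 0.03) against WT placebo livers, the second of which was 0.07 and not called with scaling to probes past the filter (adjusted p = 0.62). Its arrays overlapped between groups, with 9.72 to 10.45 in KO SAMe, 9.82 to 10.27 in KO placebo and 9.35 to 9.95 in WT placebo livers.

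Complex IV held the largest changes of the members in both directions. Of its 12 members 5 were lower and 1 was higher in KO placebo than in WT placebo livers, with a median of -0.20. Those lower were Cox7a1, Cox7b, Cox7a2l, Ndufa4 and Cox6b1. The call of Cox6b1 (-0.27, with -0.49 for its other probe) was lost in 9 of the fits that left out 1 array. It was also not made with the background block or over the low-background arrays. Subunits 4 and 5 were not called in KO placebo against WT placebo livers, with changes of -0.24 for Cox4i1 (adjusted p = 0.062), 0.13 for Cox5a (0.38) and -0.16 for Cox5b (0.11). Another, dimmer probe of Cox5b gave -0.53, so the size of its change depends on the probe.

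Cox7a1, the isoform of subunit 7a named for heart and muscle, had 6.05, 5.59, 5.86, 6.03 and 5.68 in KO SAMe livers. The KO placebo values were 4.72 at the lowest, 5.47 at the median and 5.59 at the highest, and the WT placebo values were 6.60, 6.87 and 7.35. Every KO array of either treatment lay below every WT placebo array, while the KO SAMe and KO placebo groups met at 5.59. Cox7a1 was 2.08-fold lower in KO SAMe than in WT placebo livers (log2 change -1.06, SE 0.16, adjusted p = 7.3e-05) and 3.08-fold lower in KO placebo than in WT placebo livers (-1.62, SE 0.15, adjusted p = 4.9e-08). Between KO SAMe and KO placebo livers it was higher by 0.57 (adjusted p = 0.021), a call that was not made with the background block (0.52, adjusted p = 0.12) or over the low-background arrays (0.27, adjusted p = 0.45).

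Cox8b, the isoform of subunit 8 found in heart and skeletal muscle of mice, read 5.72, 5.80, 7.12, 6.42 and 5.93 in KO SAMe livers. In KO placebo livers it ranged from 5.33 over a median of 7.07 to 8.72, and in WT placebo livers from 4.20 over 4.31 to 4.69. All KO arrays were above all WT placebo arrays, and within the KO placebo group the spread was the widest among the members shown. The probe was detected on 5 of 5 KO SAMe, 6 of 6 KO placebo and 1 of 8 WT placebo arrays. The difference is therefore a bound: Cox8b was at least 3.18-fold higher in KO SAMe (adjusted p = 0.002) and at least 5.34-fold higher in KO placebo livers (adjusted p = 7.6e-06) than in WT placebo livers. Each bound sets the brighter mean against the lowest detected signal of the WT arrays or the probe's own value there, whichever is higher. Cox8b is a member only through its detection on KO arrays, so the direction of its change was not independent of the detection rule. For KO SAMe against KO placebo livers the change of -0.75 was not called (SE 0.41, adjusted p = 0.22).

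**Figure D2:**
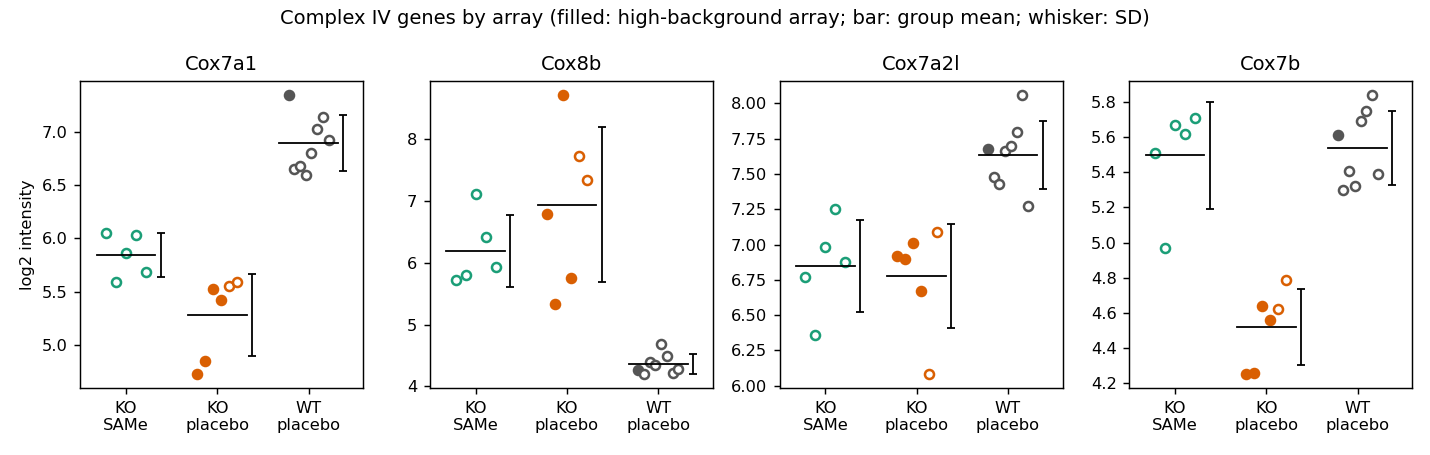
Log2 intensity (vertical axes, which differ between panels and do not start at 0) of Cox7a1, Cox8b, Cox7a2l and Cox7b on each array, with KO SAMe, KO placebo and WT placebo livers from left to right. Filled points are high-background arrays, bars are group means and whiskers are 1 SD. Cox7a1 and Cox7a2l are lower and Cox8b is higher in both KO groups than in WT placebo livers, while Cox7b is lower in KO placebo livers alone.

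Cox7a1 and Cox8b also stood among the markers of brown adipocytes, and adipocyte markers were set beside them. Being on such a list does not show that a gene is particular to that cell type in liver. Cidea, a lipid droplet protein on the adipocyte list, lay between 4.53 and 6.53 in KO SAMe livers, 4.84 and 7.89 in KO placebo livers and 4.14 and 4.57 in WT placebo livers. The related Cidec was between 4.28 and 5.30 in KO SAMe, 5.55 and 6.53 in KO placebo and 4.12 and 4.34 in WT placebo livers. These were the 2 of 8 adipocyte markers that passed the filter. Both passed it through KO arrays, so their direction, folds and sums below were not independent of the filter. Cidea was detected on 5 of 5 KO SAMe, 6 of 6 KO placebo and 1 of 8 WT placebo arrays, and Cidec on 4 of 5, 6 of 6 and 0 of 8. In KO placebo livers Cidea was at least 3.74-fold (adjusted p = 0.00018) and Cidec at least 2.67-fold higher (adjusted p = 3.5e-08) than in WT placebo livers, bounds set as for Cox8b. Their summed intensity was 47.8 to 131 in KO SAMe, 85.1 to 308 in KO placebo and 36 to 42.5 in WT placebo livers. Of 6 brown adipocyte markers 4 passed, with sums of 196 to 296, 125 to 586 and 192 to 250 in KO SAMe, KO placebo and WT placebo livers, and they moved in opposite directions. Elovl3, a fatty acid elongase, was lower in KO placebo livers (-0.73, adjusted p = 0.0014), as was Cox7a1, while Cox8b and the coactivator Ppargc1a were higher. The defining markers Adipoq, Fabp4 and Ucp1 had no probe in the annotation used. Retn of the adipocyte list and Tnni2 of the striated muscle list had a probe, detected on 1 array each, and did not pass the filter. Of 10 striated muscle markers 1 passed, Myh7, which was between 4.38 and 4.73 in KO SAMe, 4.27 and 4.99 in KO placebo and 4.51 and 5.42 in WT placebo livers and was not called in any comparison. What part other cell types had in the values of Cox7a1 and Cox8b was not tested.

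Some markers of other cell types were called as well. Of all genes tested, 20.4% were lower and 19.8% higher in KO placebo than in WT placebo livers. In KO SAMe livers 10.8% were higher and 7.69% lower than in KO placebo livers, and 9.49% higher and 8.09% lower than in WT placebo livers. The marker lists are short, so none is read as differing from all genes. Of 9 pancreatic acinar markers 3 passed the filter, and the digestive elastase genes Cela1 (-1.53, adjusted p = 1.8e-06) and Cela2a (-1.01, adjusted p = 0.00016) were lower in KO placebo than in WT placebo livers and higher in KO SAMe than in KO placebo livers (0.86, adjusted p = 0.0076, and 1.37, adjusted p = 0.00041). Amy2a5 was not called, and the summed intensity of the list was 1650 to 2700 in KO SAMe, 1380 to 2430 in KO placebo and 2100 to 3000 in WT placebo livers. These elastase genes thus had the signs that most called members had in both comparisons. Of 4 endothelial markers Stab2 (0.74, adjusted p = 0.0013) and Pecam1 were higher and Tek was lower (-0.56, adjusted p = 0.00037) in KO placebo than in WT placebo livers, and Stab2 and Pecam1 were lower in KO SAMe than in KO placebo livers, with list sums of 107 to 165, 142 to 198 and 124 to 172 in KO SAMe, KO placebo and WT placebo livers. Pecam1 was detected on 1 of 5, 6 of 6 and 2 of 8 arrays of these groups. Of the other lists, 2 of 3 lymphocyte markers (Cd3d, Cd79b) and 1 of 5 macrophage markers (Clec4f) were lower, and 1 of 4 stellate cell markers (Col1a1) and 1 of 2 cholangiocyte markers (Sox9) were higher in KO placebo than in WT placebo livers. None of these 4 lists had a marker called in KO SAMe against KO placebo livers. Cd79b was detected on 7 of 8 WT placebo arrays and on 0 KO arrays. Col1a1 was detected on 0 of 5 KO SAMe, 5 of 6 KO placebo and 1 of 8 WT placebo arrays. Like Pecam1, these markers passed the filter only through the group where they were higher, so their direction was not independent of it. Against WT placebo livers, Cd79b was lower (-0.40, adjusted p = 0.0098) and Sox9 higher (1.09, adjusted p = 0.0094) in KO SAMe livers, as Cela1 was lower (-0.67, adjusted p = 0.024), and 0 of 2 erythroid markers were called in any comparison. The sums of these lists overlapped between all groups, and the part of these cell types in the members' changes was not tested.

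Cox7a2l, a relative of subunit 7a that joins complexes III and IV in supercomplexes, read 6.77, 6.36, 6.98, 7.25 and 6.88 in KO SAMe livers. In KO placebo livers it ran from 6.08 over 6.91 to 7.09, against 7.27, 7.67 and 8.06 as the lowest, median and highest in WT placebo livers. Both KO groups lay wholly below WT placebo and overlapped with each other. Against WT placebo livers the log2 change was -0.79 in KO SAMe (SE 0.16, adjusted p = 0.0018) and -0.86 in KO placebo livers (SE 0.15, adjusted p = 0.00012), and KO SAMe against KO placebo gave 0.07 (adjusted p = 0.84). Cox7a2, the isoform found in liver, ran between 5.0 and 5.56 in KO SAMe, 5.13 and 5.70 in KO placebo and 4.84 and 6.13 in WT placebo livers. It was called in 0 of the 3 comparisons, with -0.11 in KO SAMe and 0.00 in KO placebo livers against WT placebo livers.

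Cox7b, a small accessory subunit, had 5.51, 4.97, 5.67, 5.62 and 5.71 in KO SAMe livers. The lowest, median and highest were 4.25, 4.59 and 4.79 in KO placebo livers, against 5.30, 5.51 and 5.84 in WT placebo livers. No KO placebo array reached the other groups. KO placebo livers were 2.02-fold lower than WT placebo livers (adjusted p = 1.7e-06) and KO SAMe livers 1.97-fold higher than KO placebo livers (adjusted p = 0.00031), whereas KO SAMe and WT placebo livers differed by -0.04 (adjusted p = 0.88). The probe was detected on all KO SAMe and WT placebo arrays and on 4 of 6 KO placebo arrays. Ndufa4, first named as a complex I gene and found in complex IV, was lower in KO placebo than in WT placebo livers (log2 change -0.57, adjusted p = 7.7e-05), with 11.30 to 11.62 against 11.83 to 12.24. Cox6a1, the isoform of subunit 6a outside muscle, was called in 0 of the 3 comparisons over all arrays. In KO placebo against WT placebo livers its change was 0.04, with 0.26 under the background block (adjusted p = 0.017) and -0.31 with arrays scaled to the median of probes past the filter (adjusted p = 0.023), so no direction is given for it.

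In complex V, 9 of 16 members were lower in KO placebo than in WT placebo livers, between -0.80 and -0.29, and 1 was higher, with a median of -0.32. The lower ones included Atp5e and Atp5c1 of the F1 head (2 of 5), Atp5pb, Atp5h and Atp5j of the stalk (3 of 4), and Atp5j2, Atp5k, Atp5l and Atp5md of the membrane part Fo (4 of 7). The catalytic beta subunit Atp5b (-0.07, adjusted p = 0.51) and its partner Atp5a1 (0.10, adjusted p = 0.6) were not called. The ring subunits Atp5g2 (-0.05, adjusted p = 0.81) and Atp5g3 (0.00, adjusted p = 0.98) were not called either.

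The epsilon and delta subunits, which sit side by side at the foot of the rotating F1 stalk, went in opposite directions. Atp5e, the epsilon subunit, read 5.59, 5.56, 5.50, 5.55 and 5.55 in KO SAMe livers, 4.63 to 5.45 with a median of 5.12 in KO placebo livers and 5.29 to 6.25 with a median of 5.91 in WT placebo livers. Its KO placebo and WT placebo arrays overlapped slightly, and its log2 change between them was -0.80 (SE 0.15, adjusted p = 0.00015). Atp5d, the delta subunit, read 9.51, 9.29, 9.71, 9.60 and 9.36 in KO SAMe livers, 9.50 to 9.86 with a median of 9.74 in KO placebo livers and 9.17 to 9.32 with a median of 9.20 in WT placebo livers. Every KO placebo array lay above every WT placebo array, with a change of 0.46 (SE 0.08, adjusted p = 0.00013). Atp5j2, subunit f of the membrane part, had 12.21, 12.24, 12.34, 12.39 and 12.20 in KO SAMe livers, all above the KO placebo range of 11.44 to 12.01 and within the WT placebo range of 11.99 to 12.33 or just over it.

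Among the assembly factors of complex I within the members, Ndufaf4 (-0.62), Ndufaf5 (-0.55) and Ndufaf8 (-0.45) were lower and Ndufaf1 (0.40) and Ndufaf3 (0.29) were higher in KO placebo than in WT placebo livers. Ndufaf2 (-0.43, adjusted p = 0.11) and Ndufaf7 (-0.14, adjusted p = 0.45) were not called. The probe named for Ndufs5-ps, which could also bind transcripts of the parent gene, was lower (-0.75, adjusted p = 0.00042), and which of the genes it read is uncertain. Assembly factors help to build the complex and are not part of the finished enzyme. Ndufaf4 was also lower in KO SAMe than in WT placebo livers (-0.58, adjusted p = 0.0082).

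In KO SAMe livers, 28 of the 78 members were higher than in KO placebo livers and 1, Ndufs3, was lower. Over all genes tested 18.5% were called, 10.8% higher and 7.69% lower, and among the 3453 bright genes 19.1% were higher and 10.4% lower. The members' share called higher was 35.9% and their median log2 change was 0.25, against -0.002 over all genes. Without overlap between the groups of arrays, 16 of the 78 members were higher, where 4.81% of all genes were, and 0 lower, where 3.33% were. Of the 3453 bright genes, 299 were higher and 182 lower without overlap. Among those called higher alone, 16 of 28 members and 521 of 1167 genes did not overlap. By complex, 16 of 32 were higher in complex I, 0 of 3 in complex II, 2 of 7 in complex III, 4 of 12 in complex IV and 4 of 16 in complex V, besides Ndufaf5 and Ndufs5-ps. With arrays scaled to the median of all probes the balance turned to 7 higher and 9 lower (1.87% and 29.1% of all genes), while the median of all genes was at -0.21 and that of the members 0.28 above it. With scaling to probes past the filter 41 were higher and 1 lower (24.1% and 8.16% of all genes). The count of higher members was 17 without KO SAMe replicate 4, without KO placebo replicate 1 or without KO placebo replicate 2. The largest rises among subunits were those of Cox7b (0.98), Ndufb4 (0.73), Ndufa7 (0.72), an accessory subunit of the matrix arm, and Ndufb7 (0.66). Smaller called rises included those of Ndufa5 (0.44), Ndufv1 (0.42), Ndufs6 (0.41) and Cox5b (0.27), whose changes in KO placebo against WT placebo livers were -0.21, -0.14, -0.19 and -0.16 and were not called. Dimmer probes gave 0.06 for Ndufa5, -0.18 for Ndufs6 and -0.53 for Cox5b in KO placebo against WT placebo livers. In KO SAMe against KO placebo livers those probes gave 0.17, 0.11 and 0.60. The KO placebo arrays enter both comparisons, so the values stand side by side and are not independent.

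Set directly against WT placebo livers, KO SAMe livers had 4 members lower and 5 higher, with a median of -0.04. Over all genes 17.6% were called in this comparison, 8.09% lower and 9.49% higher, and the members' shares of 5.13% and 6.41% were below both. The 4 lower members were Cox7a1, Cox7a2l, Ndufaf4 and Ndufa6 (-0.34, adjusted p = 0.044), an accessory subunit of the matrix arm. The 5 higher members were Cox8b, Uqcrc1, Ndufa10 (0.49, adjusted p = 0.014), Atp5d (0.26, adjusted p = 0.042) and Ndufv1 (0.29, adjusted p = 0.033), the subunit that binds NADH. Called genes whose groups did not overlap made up 5.95% of all genes. Of the 78 members, Cox7a1, Cox7a2l and Ndufaf4 were lower without overlap (2.54% of all genes) and Cox8b and Ndufv1 higher (3.41%). Among called genes alone, these were 3 of 4 lower and 2 of 5 higher members, against 275 of 876 and 369 of 1028 genes. Of the 3453 bright genes, 153 were lower and 189 higher without overlap. Ndufa10 had 10.71, 11.14, 10.83, 10.73 and 10.61 in KO SAMe livers, 10.54 to 10.94 in KO placebo livers and 9.66 to 10.66 in WT placebo livers, so that the groups met at their edges. Without KO SAMe replicates 2, 3 or 4, or WT placebo replicates 2 or 7, each left out alone, 3 members were called higher. With arrays scaled to the median of all probes 7 members were lower and 2 higher (7.25% and 5.78% of all genes), and with scaling to probes past the filter 6 and 2 (9.16% and 6.93%). The calls of Ndufa10 and Atp5d were not made under either scaling.

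The members' mean difference from the WT placebo mean, taken per array, was -0.05 ± 0.10 in KO SAMe (SD, n = 5), -0.27 ± 0.15 in KO placebo (SD, n = 6) and 0.00 ± 0.10 in WT placebo livers (SD, n = 8). The 4 high-background KO placebo arrays were at -0.49, -0.43, -0.20 and -0.21, and the 2 low-background ones at -0.16 and -0.12. The KO SAMe arrays ran from -0.18 to 0.05 and the WT placebo arrays from -0.13 to 0.13. The 1 high-background WT placebo array was the highest of its group, at 0.13. The high-background KO placebo arrays thus lay below the WT placebo range, and the low-background ones at its lower edge. In complex I all KO placebo arrays (-0.54 to -0.16) lay below all KO SAMe (-0.11 to 0.08) and WT placebo arrays (-0.12 to 0.09). In complexes III, IV and V the KO placebo means were -0.30, -0.17 and -0.27, with ranges that overlapped with WT placebo.

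**Figure D3:**
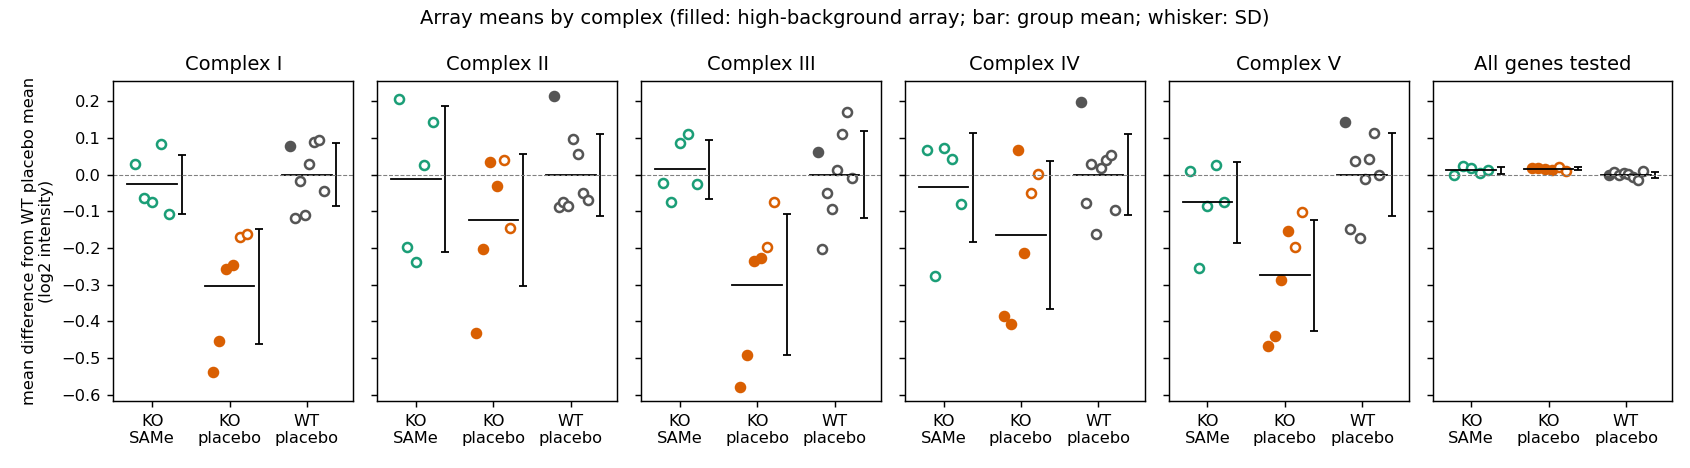
Mean difference from the WT placebo mean (log2 intensity, vertical axis) over the members of each complex and over all genes tested, per array, with KO SAMe, KO placebo and WT placebo livers from left to right in each panel. Filled points are high-background arrays, bars are group means and whiskers are 1 SD. In each complex the 2 lowest KO placebo arrays are high-background arrays, and the single high-background WT placebo array is above the WT placebo mean.

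With the background set as a block, 31 members were lower and 7 higher in KO placebo than in WT placebo livers (18.1% and 18.2% of all genes), and 30 and 6 of these were the same genes as before. Over the low-background arrays alone, with 2 KO placebo arrays, 12 were lower and 4 higher (8.99% and 9.28% of all genes), all among those called over all arrays. The 12 were Ndufv2, Ndufa11, Ndufb4, Ndufb7, Ndufc2, Ndufaf4, Uqcr10, Cox7a1, Cox7a2l, Cox7b, Ndufa4 and Atp5pb, and the 4 were Ndufs7, Ndufa10, Cox8b and Atp5d. For KO SAMe against KO placebo livers the block left 8 members higher and 2 lower (4.81% and 4.45% of all genes), of which 7 higher ones were called before: Ndufa7, Ndufa11, Ndufb4, Ndufb7, Ndufb8, Uqcr10 and Cox7b. Over the low-background arrays 0 were higher and 1, Cox8b, was lower (limma, 0.323% and 0.379% of all genes), with a median of 0.13. For KO SAMe against WT placebo livers the block gave the same 4 lower and 5 higher members (8.41% and 9.42% of all genes), and the low-background arrays gave 3 lower (Ndufaf4, Cox7a1, Cox7a2l) and 4 higher (Ndufv1, Ndufa10, Uqcrc1, Cox8b), where 6.88% and 8% of all genes were called. With the letter of the animal ID as a term, 0 members were called in KO placebo against WT placebo livers (limma, 0.24% of all genes lower and 0.259% higher) and 0 in KO SAMe against KO placebo livers (0% and 0.00923%). KO placebo and WT placebo livers share no letter. KO SAMe and KO placebo livers share only G, on KO SAMe replicate 3 and KO placebo replicates 5 and 6. So few arrays bear on these comparisons under the letter term, and its zeros do not show that the members were equal. With the letter term 3 members were lower (Ndufaf4, Cox7a1, Cox7a2l) and 3 higher (Ndufa10, Uqcrc1, Cox8b) in KO SAMe than in WT placebo livers (5.46% and 7.11% of all genes). How much of the difference between KO SAMe and KO placebo livers belongs to the background set was not tested further, since 2 KO placebo arrays are all that share a set with the KO SAMe arrays.

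**Figure D4:**
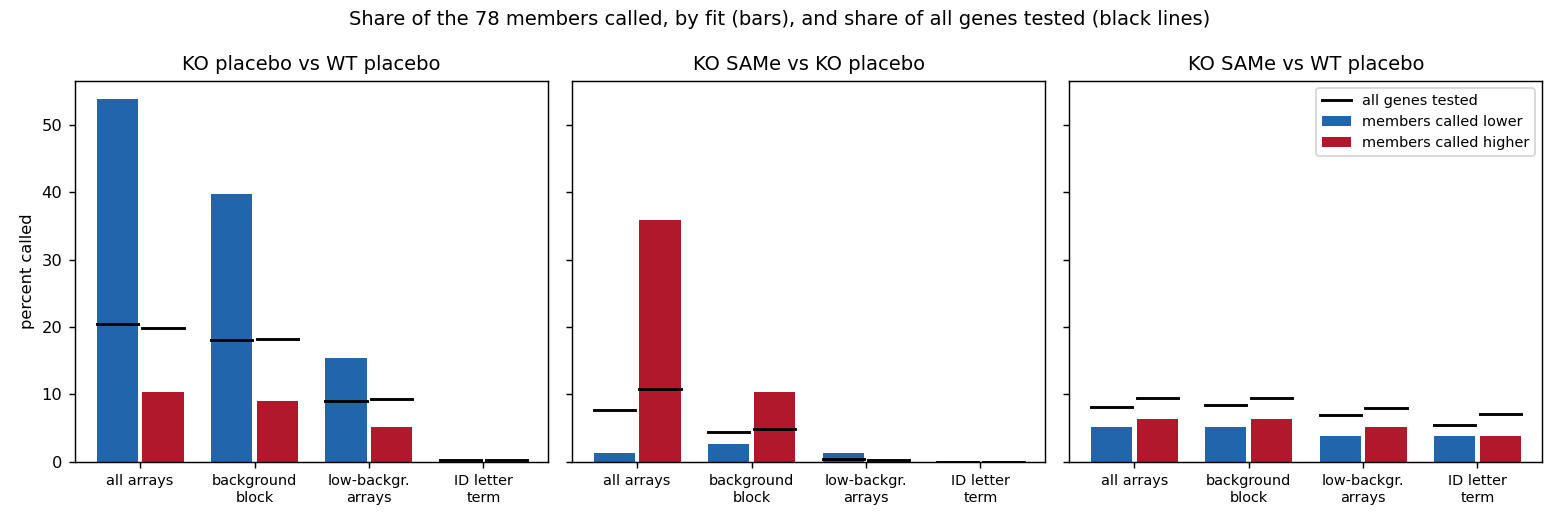
Percent of the 78 members called lower (blue bars) and higher (red bars) in the 3 comparisons, over all arrays, with the background set as a block, over the low-background arrays alone and with the letter of the animal ID as a term. Black lines give the percent of all 10831 genes called in the same direction. The bars for KO SAMe against WT placebo livers stay at or under 6.41% in each fit, whereas the 35.9% called higher in KO SAMe against KO placebo livers become 10.3% with the block and 0% over the low-background arrays.

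The genes around the complexes were counted in the same fit. Of 38 measured assembly factors, which include the 7 Ndufaf members, 15 were lower (39.5%) and 8 higher (21.1%) in KO placebo than in WT placebo livers, where 20.4% and 19.8% of all genes were. The bright genes had 32.8% lower and 26.9% higher. In KO SAMe against KO placebo livers 13 assembly factors were higher (34.2%) and 2 lower (5.26%), where 10.8% and 7.69% of all genes and 19.1% and 10.4% of the bright genes were. The assembly factors' share higher in KO placebo livers was thus near that of all genes. Sdhaf3, an assembly factor of complex II, had a log2 change of -0.66 in KO SAMe (adjusted p = 0.0023) and -1.12 in KO placebo livers (adjusted p = 1.2e-06) against WT placebo livers. Coa5, named for the assembly of cytochrome c oxidase, had 5.54 to 6.14 in KO SAMe livers and 6.56 to 7.14 in KO placebo livers, against 5.48 to 6.44 in WT placebo livers. It was thus higher in KO placebo livers than in either other group (1.05 against WT placebo, adjusted p = 5.7e-06), while Coa4, another assembly factor of that enzyme, was lower (-0.88, adjusted p = 1.8e-05).

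Of 12 measured regulators of nuclear mitochondrial genes, 3 were lower (Esrra, Nrf1, Sirt3) and 4 higher (Ppargc1a, Ppara, Ppard, Esrrg) in KO placebo than in WT placebo livers, which is 25% and 33.3% of a list of 12 against 20.4% and 19.8% of all genes. Among the bright genes 32.8% were lower and 26.9% higher. Esrra, the estrogen-related receptor alpha, had 7.31, 7.51, 7.51, 7.34 and 7.77 in KO SAMe livers. It spanned 6.34 to 6.88 with a median of 6.76 in KO placebo livers, against 7.48 to 8.12 with a median of 7.89 in WT placebo livers. No KO placebo array reached the other groups, and the log2 changes were -1.14 for KO placebo against WT placebo (SE 0.11, adjusted p = 1.2e-07), 0.79 for KO SAMe against KO placebo (SE 0.13, adjusted p = 0.00044) and -0.36 for KO SAMe against WT placebo livers (SE 0.12, adjusted p = 0.043). Over the low-background arrays Esrra was lower in KO placebo than in WT placebo livers (-1.06, adjusted p = 0.00053), and the difference of 0.72 in KO SAMe against KO placebo livers was not called (adjusted p = 0.065), nor was the one of -0.33 in KO SAMe against WT placebo livers (adjusted p = 0.077).

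Nrf1, which binds the NRF1 site, had 5.88 to 6.54 in KO SAMe and 5.17 to 6.03 in KO placebo livers, against 6.17 to 6.72 in WT placebo livers. The 2 highest KO placebo values were those of the low-background arrays. It was lower in KO placebo than in WT placebo livers (-0.95, SE 0.13, adjusted p = 7.5e-06), and also over the low-background arrays (-0.52, adjusted p = 0.037). Its rise of 0.72 in KO SAMe against KO placebo livers (adjusted p = 0.0025) was not called with the background block (0.46, adjusted p = 0.08), over the low-background arrays (0.28, adjusted p = 0.45) or with arrays scaled to the median of all probes (0.30, adjusted p = 0.12). Ppargc1a, the coactivator of both factors, went the other way: it was higher in KO SAMe (0.91, adjusted p = 0.0056) and in KO placebo livers (0.80, adjusted p = 0.0033) than in WT placebo livers, with KO SAMe arrays between 5.65 and 6.51, KO placebo arrays between 5.16 and 6.49 and WT placebo arrays between 4.53 and 5.41. Ppara, a receptor that drives fatty acid oxidation, was likewise higher, by 0.67 in KO SAMe and 0.54 in KO placebo livers. NRF1 matches stood in 9 of 38 windows of members lower in KO placebo livers (23.7%) and in 7 of 21 windows of members not called (33.3%), and in 1 of 8 windows of members higher there. ETS matches stood in 13 of 38 (34.2%), 3 of 21 (14.3%) and 2 of 8 of these windows, and matches to the receptor motif in 1 of 38 (2.63%), 2 of 21 (9.52%) and 0 of 8.

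**Figure D5:**
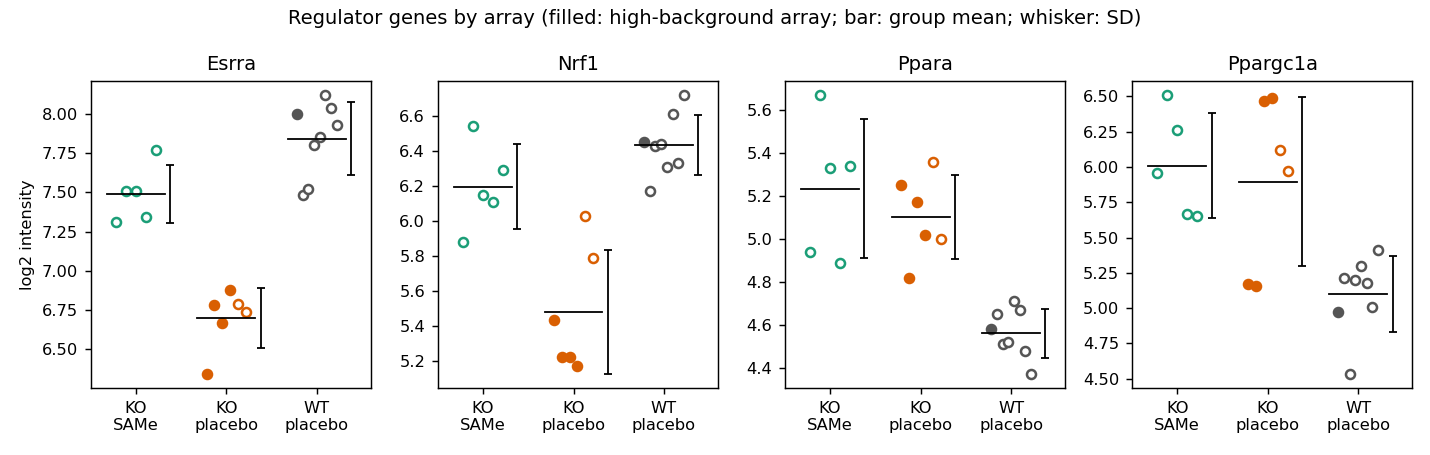
Log2 intensity (vertical axes, which differ between panels and do not start at 0) of the regulator genes Esrra, Nrf1, Ppara and Ppargc1a on each array, with KO SAMe, KO placebo and WT placebo livers from left to right. Filled points are high-background arrays, bars are group means and whiskers are 1 SD. Esrra is between 6.34 and 6.88 in all KO placebo livers and above 7.3 elsewhere, while Ppara and Ppargc1a have higher means in both KO groups than in WT placebo livers.

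Among 14 genes that copy and transcribe mitochondrial DNA, 5 were lower (35.7%) and 1 was higher (7.14%) in KO placebo than in WT placebo livers. Of all genes 20.4% and 19.8% were, and of the bright genes 32.8% and 26.9%. Tefm, the mitochondrial elongation factor, was lower (-1.01, adjusted p = 8e-06) and was higher by 0.75 in KO SAMe than in KO placebo livers (adjusted p = 0.003), a call not made over the low-background arrays (0.56, adjusted p = 0.19) or with arrays scaled to the median of all probes (0.34, adjusted p = 0.12). Of 13 genes for the mobile carriers and coenzyme Q synthesis 4 were lower (30.8%) and 2 higher (15.4%). Again 20.4% and 19.8% of all genes and 32.8% and 26.9% of the bright genes were. Cycs, cytochrome c, was lower (-0.43, adjusted p = 0.00092). The enzymes of the tricarboxylic acid cycle and pyruvate dehydrogenase had 7 of 15 higher (46.7%) and 1 lower (6.67%) in KO placebo than in WT placebo livers, with a median of 0.24, where 19.8% and 20.4% of all genes were. The bright genes had 26.9% higher and 32.8% lower. Cs, citrate synthase, was higher by 0.83 (adjusted p = 3.7e-05), with 6.68 to 7.25 in KO placebo livers against 5.61 to 6.47 in WT placebo livers. Dlst, a subunit of 2-oxoglutarate dehydrogenase, was higher by 0.67 (adjusted p = 1.5e-05), whereas Dlat, a subunit of pyruvate dehydrogenase, was the 1 gene lower (-1.0, adjusted p = 3.8e-07).

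Of 16 genes of mitochondrial import, channels, chaperones and shape, 7 were higher (43.8%) and 5 lower (31.2%) in KO placebo than in WT placebo livers, where 19.8% and 20.4% of all genes were. Among the bright genes 26.9% were higher and 32.8% lower. The chaperone gene Hspd1 was higher by 1.73 (adjusted p = 4.3e-06) and was lower in KO SAMe than in KO placebo livers (-1.37, adjusted p = 0.0013), with arrays between 7.23 and 8.28 in KO SAMe, 8.62 and 9.46 in KO placebo and 6.62 and 8.15 in WT placebo livers. Over the low-background arrays that fall was not called (-1.07, adjusted p = 0.15). Mfn2, which fuses outer membranes, was higher by 0.61 in KO SAMe (adjusted p = 0.0036) and by 1.20 in KO placebo livers (adjusted p = 3.9e-07) than in WT placebo livers. Atpif1, the inhibitor of the ATP synthase, was higher in KO SAMe than in KO placebo (0.55, adjusted p = 0.0064) and WT placebo livers (0.67, adjusted p = 0.00069), and its change of 0.12 between KO placebo and WT placebo livers was not called (adjusted p = 0.45). The difference between KO SAMe and KO placebo was not called with the background block (0.46, adjusted p = 0.077), over the low-background arrays (0.32, adjusted p = 0.31) or with arrays scaled to the median of all probes (0.33, adjusted p = 0.058). Slc25a5, an ADP/ATP carrier, was higher by 0.52 in KO placebo than in WT placebo livers (adjusted p = 1.2e-05), with no overlap between the groups.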

How the data were processed

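Liver RNA was measured on 19 single-colour Illumina arrays. Per the labels' protocols, RNA was extracted with a column kit and amplified as biotin-labelled RNA. The authors deposited a raw intensity for each of 45281 probes per array, without background correction (lowest value 62.5), with a detection p-value, per the file headers. They also deposited log2 values of 17592 probes, which the raw table gives back as log2 and then quantile normalized raw intensities of probes with detection p under 0.01 on at least 1 array. These served as an alternative. Scanner software and BeadChip positions are not stated there, and 0 columns of values were left unmapped.

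Intensities were corrected by normexp with background inferred from detection p-values (offset 16), then quantile normalized and log2 transformed with limma 3.58.1 in R 4.3.3. Quantile normalization hides a shift shared by most genes. A probe entered the fit with a detection p under 0.05 on 5 arrays or more, and the brightest probe stood for each gene. Gene names came from GEO's platform annotation, in which 14737 probes had 1 symbol, 10 had several and 2845 of the authors' probes had no entry. For 21 members more than 1 probe passed. Groups came from genotype and treatment labels. One limma fit (lmFit, eBayes, two-sided) over all 19 arrays gave the 3 comparisons, with Benjamini-Hochberg adjustment over 10831 genes and unnamed probes at 0.05. Nothing in the labels says that animals came from separate litters or cages, so p-values measure the spread between these arrays, whose number limits the precision. Correlations between arrays of a group were 0.9659 to 0.9904, so none was a copy. The fit was tested on simulated data. Members and gene lists were chosen with earlier results of these data known. Members named with array values were those with the largest moderated t per complex and comparison, the largest called rise and fall, the tissue isoforms and genes whose probes differed by over 1.5 times; other genes came from pathway lists by moderated t, and others named in passing were chosen after their values were seen. A fold is a lower bound where the dim group was detected on under 50% of its arrays, a limit chosen after the data were seen.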

Additional observations from a re-analysis of the deposited data

Results flagged for a closer look

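Of 90 groups of values checked (the named members and the means of the complexes, in each of the 3 groups), 3 held an array far from the others of its group, where chance alone gives about 1 in 20. Cox7b was 4.97 in KO SAMe replicate 2, against 5.51 to 5.71 in the other KO SAMe livers, and was still above every KO placebo array. Sdhc was 10.52 in KO placebo replicate 5, against 10.02 to 10.20 in the other KO placebo livers. Cox6a1 was 10.35 in WT placebo replicate 1, the high-background array of that group, against 10.78 to 10.92 in the other WT placebo livers.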

How the results depend on the processing

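No paired analysis was made, since each array had its own animal ID and the labels pair no animals across groups. The replicate numbers used here only name arrays. Counts of members and their medians kept their direction without background correction, with normexp on the raw signal alone (offset 50), with the authors' log2 values, without a detection filter, with detection on all arrays and with the mean of all probes of a gene.

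Values that moved did so as follows, and the causes were not tested. With each array scaled to the median of all probes, which put the median of all genes at 0.18, -0.21 and -0.02 in the 3 comparisons (KO placebo against WT placebo, KO SAMe against KO placebo, KO SAMe against WT placebo), KO SAMe against KO placebo gave 9 lower and 7 higher members (29.1% and 1.87% of all genes) with a median of 0.069, and KO SAMe against WT placebo gave 7 lower and 2 higher (7.25% and 5.78%). With scaling to the median of probes past the filter, which put it at -0.20, 0.16 and -0.03, KO placebo against WT placebo gave 59 lower and 4 higher (42.5% and 16.5%) with a median of -0.58, the median of KO SAMe against KO placebo was 0.44 and KO SAMe against WT placebo gave 2 higher (6.93%). Under that scaling Sdhc (-0.24) and Cox6a1 (-0.31) turned lower in KO placebo livers. With the background set as a block, KO SAMe against KO placebo gave 2 lower and 8 higher. Over the low-background arrays KO placebo against WT placebo gave 12 lower and 4 higher with a median of -0.12, and KO SAMe against KO placebo gave 0 higher with a median of 0.13. With the ID letter as a term, which leaves few arrays to separate letter from group since all WT placebo IDs end in K, KO placebo against WT placebo gave 0 lower and 0 higher (0.24% and 0.259% of all genes) with a median of -0.14, KO SAMe against KO placebo gave 0 and 0 (0% and 0.00923%) with a median of 0.12, and KO SAMe against WT placebo gave 3 higher. That term turned Higd2a to 0.094 in KO placebo against WT placebo and Sdhaf3 to -0.032 in KO SAMe against KO placebo. Array weights gave 3 lower members in KO SAMe against KO placebo.

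Leaving out 1 array at a time gave 34 to 45 lower and 5 to 8 higher members in KO placebo against WT placebo (medians -0.34 to -0.25), 1 to 3 lower and 17 to 33 higher in KO SAMe against KO placebo (0.21 to 0.28), and 3 to 6 lower and 3 to 5 higher in KO SAMe against WT placebo (-0.07 to 0.01). Probes detected on few arrays of a group (Cox8b, Ndufb4, Sdhd) are limited by their signal over background.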
